A study of Xenopus allofraseri with 8 samples.

Results

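Actin thin filaments of striated muscle are capped at both ends, and the length and number of filaments in a sarcomere depend on these caps and on the proteins that bind them. Tropomodulins hold the pointed end in the middle of the sarcomere, whereas the capping protein CapZ sits on the barbed end at the Z disc. A set of 4 genes, some of them for proteins of these filament ends, was examined in the knee extensors of the frog *Xenopus allofraseri*. *tmod4* encodes a tropomodulin of skeletal muscle, and *rcsd1* encodes CapZIP, a muscle protein known in mammals to bind CapZ. *lmo7* encodes a protein with a LIM domain that is known in mammals from cell junctions and from striated muscle, and *fsd2* encodes a muscle protein with fibronectin type III and SPRY domains.

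The frogs were adult males caught in the wild in a single pond, and each gave 1 polyA RNA library from the knee extensors of its right leg. The endurant group holds frogs A, D, E, G and the burst-performant group frogs B, C, F, H (n = 4 each), by a classification made from the distance and time they moved until exhaustion and from their maximal velocity and acceleration in an escape burst. The groups differ by measured performance, with no treatment named in the labels, and each library comes from a separate animal. For each frog, the authors deposited the estimated count and the TPM (transcripts per 1000000) of every transcript of a Trinity assembly made from the reads of all 8 frogs.

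In this assembly transcripts named alike but for the isoform number form a Trinity gene. Each of the 4 genes was selected on the contrast between the groups, because 1 of its isoforms stands in the study's list of differentially expressed transcripts, and the symbols are those of that list. All isoforms of the Trinity genes TR89981|c2_g1 (*tmod4*), TR85355|c2_g1 (*rcsd1*), TR29300|c2_g2 (*lmo7*) and TR13106|c0_g1 (*fsd2*) were taken, which gave 4 of 163981 Trinity genes and 17 of 218541 transcripts. *tmod4* has 5 isoforms, *rcsd1* 3, *lmo7* 8 and *fsd2* 1. Counts occurred in at least 1 frog for all 17 isoforms and in all 8 frogs for 7 of them.

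Estimated counts are numbers of read pairs. A read pair that fits several isoforms was shared among them by Kallisto, so the split within a gene is itself an estimate. The counts of a frog summed to between 4715751 and 17359253 in the endurant group and to between 4449192 and 13611485 in the burst-performant group. Levels are given as CPM, which here is the rounded count per 1000000 of the library size scaled by edgeR's TMM factors. CPM compares frogs, whereas TPM corrects for length and also compares genes. A total of 3 counts corresponded to 0.659 CPM in frog D, the shallowest endurant frog, and to 0.838 CPM in frog H, the shallowest burst-performant frog, and values below such floors could not be told from 0. Floors cover counting error only. The abundance tables hold no gene names, so the muscle label could be checked only on the few named genes. *tmod4* and the myosin-binding protein gene *mybpc2*, both genes of skeletal muscle, were present in all 8 frogs, as were *rcsd1* and *lmo7*. *fsd2*, also a muscle gene, and LOC108701289, a listed gene taken up below, had no count in frogs A, D, E, G and H. The named genes thus did not all go the same way.

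By mean TPM over the 8 frogs, *tmod4* was the most abundant of the 4 genes. It had 134 TPM (100 to 194 TPM in single frogs), which placed it at rank 572 of the 35656 Trinity genes tested. *lmo7* had 15.7 TPM (11.9 to 22.7) and rank 3584, *fsd2* 3.81 TPM (0 to 11.4) and rank 13615, and *rcsd1* 2.61 TPM (1.86 to 3.55) and rank 18216. The frogs' values did not overlap between *tmod4* and *lmo7* or between *lmo7* and the next gene, whereas those of *fsd2* and *rcsd1* overlapped.

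The 4 isoforms that chose the genes were present or abundant in 1 group and scarce or at 0 in the other. For *tmod4*, isoform i2 (934 bases) was at 0 in all 4 endurant frogs, against 84.5, 43.7, 17.7 and 24.3 CPM in burst-performant frogs (B, C, F, H). Pooled over the frogs, it was at least 605-fold lower in endurant individuals, taking 3 counts over these 4 frogs as the floor (no count against 1770, of which 1097 were in frog B). Such pooled bounds, here and for *rcsd1* and *fsd2*, cover counting error only. They take in neither the split of read pairs by Kallisto nor the spread between frogs. For *rcsd1*, isoform i2 (2627 bases) had 0.605, 8.13, 3.68 and 4.57 CPM in endurant frogs (A, D, E, G), against 0 in all 4 burst-performant frogs. Pooled, it was at least 49.7-fold higher in endurant individuals (153 counts against none), although the value of frog A lay under the floor of the shallowest burst-performant frog.

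For *lmo7*, isoform i1 (6268 bases) was found in all 8 frogs, at 16.2, 8.13, 4.23 and 8.32 CPM in endurant frogs (A, D, E, G), against 36.2, 71.0, 46.7 and 38.5 CPM in burst-performant frogs (B, C, F, H). The groups did not overlap. For *fsd2*, the only isoform (525 bases) was at 0 in all 4 endurant frogs, against 6.47, 6.53, 3.82 and 0 CPM in burst-performant frogs (B, C, F, H). The groups thus shared the value 0 through frog H, and the pooled level was at least 64.9-fold lower in endurant individuals (no count against 190). In bulk muscle, less RNA per cell and fewer cells that make it cannot be told apart.

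**Figure D1:**
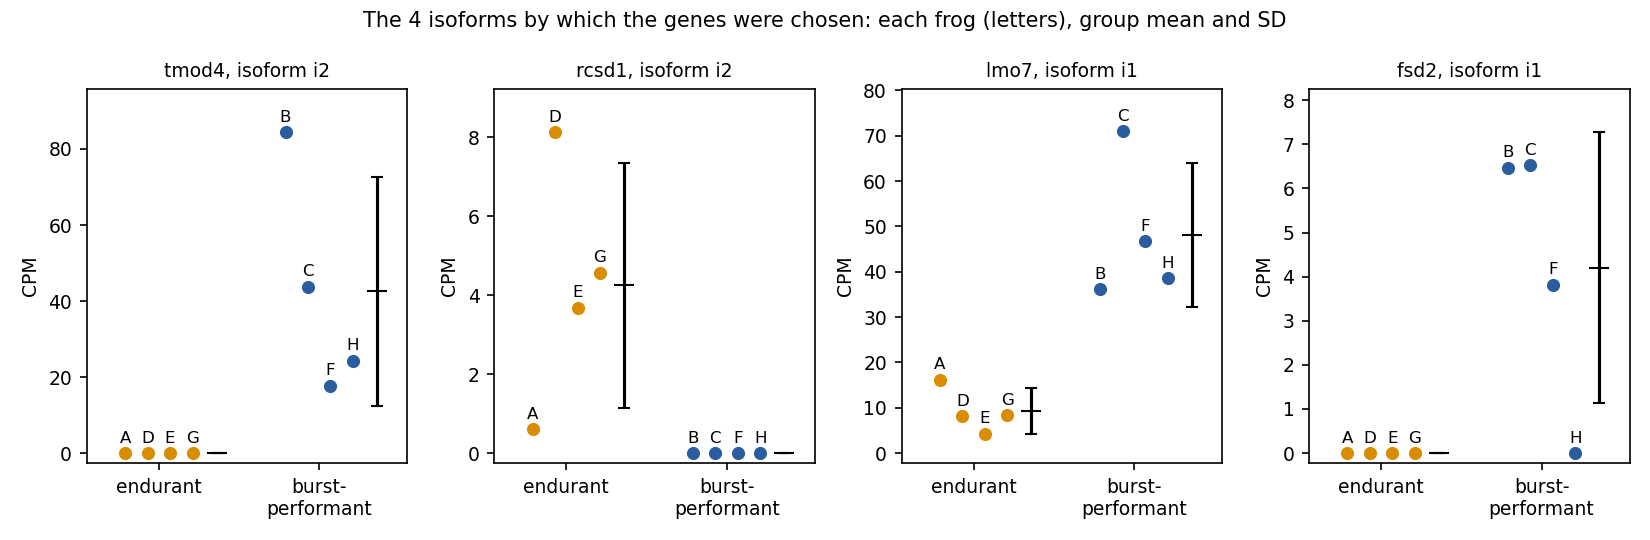
Level in CPM (vertical axis) of the isoforms by which the 4 genes were chosen, with 1 point per frog, endurant frogs in orange and burst-performant frogs in blue; the bars at the right of each group are mean and SD (n = 4). *tmod4* i2 and *fsd2* stand at 0 in every endurant frog and *rcsd1* i2 in every burst-performant frog, while *lmo7* i1 lies between 4.23 and 16.2 CPM in endurant and between 36.2 and 71.0 CPM in burst-performant frogs.

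As these isoforms were selected on this contrast, their tests describe the choice and support nothing beyond it. By edgeR's exact test all 4 were called (FDR at or under 0.05 and log2 fold change at or beyond 2 in either direction), with adjusted p of 6.49e-13 for *tmod4* i2, 4.4e-04 for *rcsd1* i2, 0.0264 for *lmo7* i1 and 0.0222 for *fsd2*. Over all 55631 transcripts that passed the filter on low counts (a CPM over 1 in 2 or more frogs), this test called 109 (0.196%), and DESeq2 called the same 4 isoforms and 153 transcripts in all (0.275%). By edgeR's quasi-likelihood test none of the 4 was called, nor was any of the 55631 transcripts (0%), of which 2038 had an unadjusted p under 0.05. The log2 fold changes of endurant over burst-performant individuals were -11.73 (SE 1.07, quasi-likelihood adjusted p = 0.759) for *tmod4* i2, 8.40 (SE 1.35, adjusted p = 1.0) for *rcsd1* i2, -2.38 (SE 0.46, adjusted p = 1.0) for *lmo7* i1 and -8.41 (SE 1.82, adjusted p = 1.0) for *fsd2*. Without the filter on low counts, *tmod4* i2 was the only one of the 4 that was called (13 of 211305 transcripts in all). The same held by limma on log2(TPM + 1) (5 of 55631 transcripts in all).

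None of the other isoforms was called by these 3 tests. Of these, 9 passed the filter on low counts, and 4 short or rare *lmo7* isoforms with 21 to 42 counts over all frogs did not. None of the 9 had an unadjusted p under 0.05 by the quasi-likelihood test, and 4 were higher in endurant individuals, with a median log2 fold change of -0.07 (0.01 over all transcripts tested). Groups that did not overlap occurred in 1 of the 13 tested isoforms with the endurant frogs higher (1.61% of all transcripts) and in 2 with the burst-performant frogs higher (1.27%), and all 3 were isoforms that had chosen their gene.

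At the pointed end, the isoforms of *tmod4* made up different shares of a total that overlapped between the groups. The most abundant was i3 (931 bases), 3 bases shorter than i2, with 103, 88.1, 85.6 and 58.7 CPM in endurant frogs (A, D, E, G), against 22.6, 110, 43.9 and 91.6 CPM in burst-performant frogs (B, C, F, H). The groups overlapped widely (log2 fold change 0.32, SE 0.48, quasi-likelihood adjusted p = 1.0). As a share of the gene's counts, i3 held 65.2, 53.0, 57.2 and 52.6% in endurant frogs (A, D, E, G), against 17.6, 37.3, 34.0 and 40.5% in burst-performant frogs (B, C, F, H), so that every endurant frog lay above every burst-performant frog. Isoform i2 held none of the counts in the endurant frogs, against 66.1, 14.8, 13.7 and 10.8% in burst-performant frogs (B, C, F, H). The difference of the mean shares was -26.3 percentage points and -13.1 without frog B, in which i2 was the main isoform.

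Together, i2 and i3 held 57.0 ± 5.83% of the *tmod4* counts in endurant and 58.7 ± 16.8% in burst-performant individuals (SD, n = 4 each). The shares add up to the whole gene, so the gain of 1 isoform is tied to the loss of others, and these shares are given with no test. As i2 was chosen for its absence in endurant frogs, the separation of the i3 shares is not free of that choice. How many isoforms of other genes separate so in their shares was not counted. Isoform i1 (1159 bases) averaged 36.1 ± 14.1 CPM in endurant frogs, against 58.3 ± 34.98 CPM in burst-performant frogs, and i5 (856 bases) 24.1 ± 13.1 CPM in endurant frogs, against 25.2 ± 27.4 CPM in burst-performant frogs. Isoform i4 (932 bases) was low, with counts in 3 endurant frogs and in burst-performant frog H.

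The total of *tmod4* was 158, 166, 150 and 111 CPM in endurant frogs (A, D, E, G), against 128, 296, 129 and 226 CPM in burst-performant frogs (B, C, F, H). Frogs C and H lay above all endurant frogs and frogs B and F within their range (log2 fold change -0.43, SE 0.33). Without i2, the isoform that had chosen the gene, it averaged 146 ± 24.2 CPM in endurant frogs, against 152 ± 93.1 CPM in burst-performant frogs (log2 fold change -0.07, SE 0.47, quasi-likelihood adjusted p = 1.0). Leaving out i2 lowered the burst-performant frogs only, and Kallisto shares read pairs among isoforms. The remainder is thus not independent of the choice. The lowest value of this remainder, 43.3 CPM, belonged to frog B, whose i2 was the highest. The sign of this fold change turned positive without frog C (0.29), G (0.04) or H (0.11) and on other scales, so that no direction can be given. The fit of the gene totals without the isoforms that had chosen the genes left *fsd2*, which has no other isoform, with no count to test. By the quasi-likelihood test it called 0 of 35655 Trinity genes (0%), of which 1581 had an unadjusted p under 0.05. The exact test called 42 and DESeq2 32, none of them *tmod4*, *rcsd1* or *lmo7*.

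**Figure D2:**
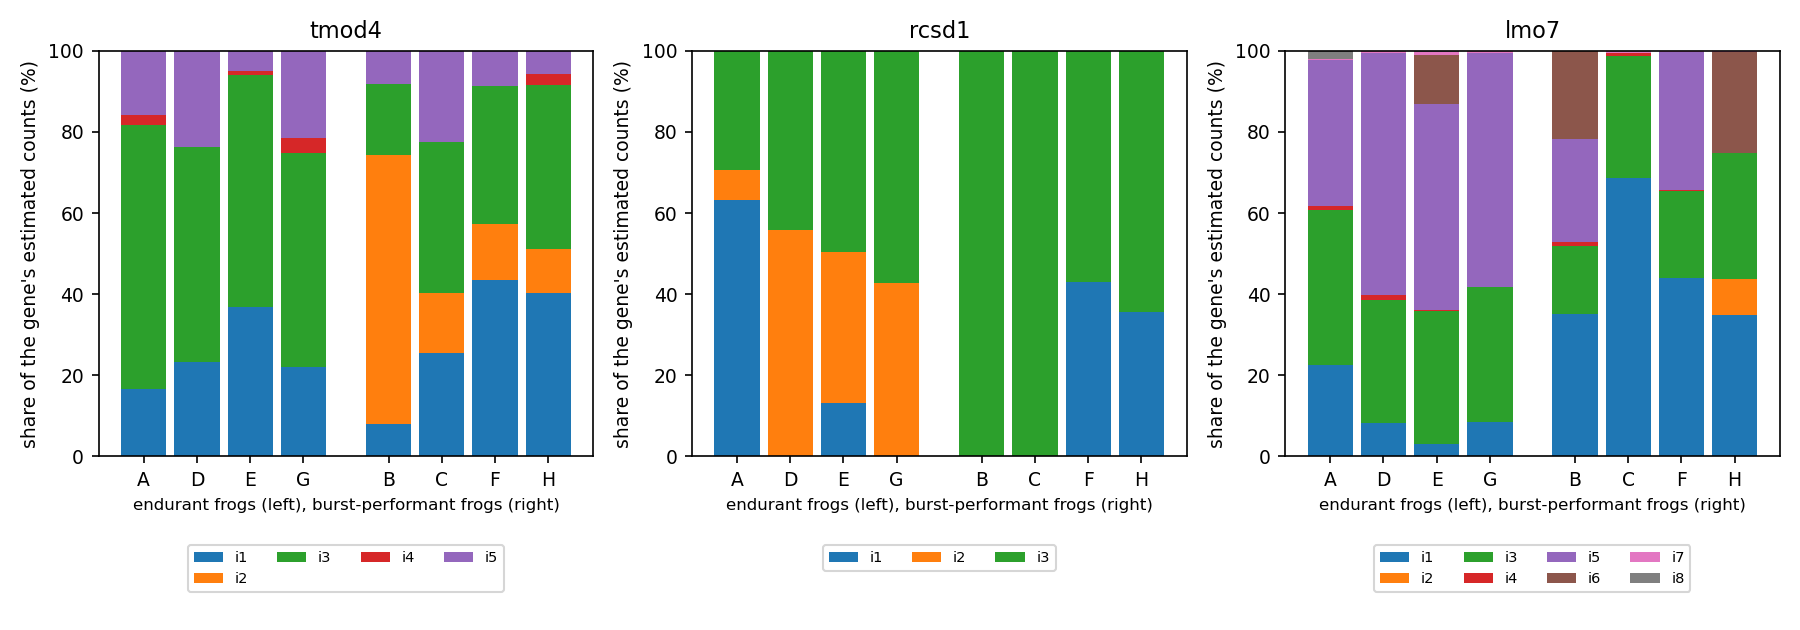
Share of each isoform in the estimated counts of *tmod4*, *rcsd1* and *lmo7* (vertical axis, percent), with 1 bar per frog, the endurant frogs (A, D, E, G) at the left and the burst-performant frogs (B, C, F, H) at the right. *tmod4* i2 is seen only in the burst-performant bars, where it holds 10.8 to 66.1%; *rcsd1* i2 is seen only in the endurant bars, at 7.34 to 55.7%; *lmo7* i5 holds 36.1 to 59.7% in the endurant frogs and is near 0 in frogs C and H.

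A second Trinity gene of the same component, TR89981|c2_g2, carries no symbol in the sources used here. Its total was 806, 543, 324 and 476 CPM in endurant frogs (A, D, E, G), against 189, 1243, 210 and 379 CPM in burst-performant frogs (B, C, F, H). As for *tmod4* itself, frog C was the highest of all frogs, and the groups overlapped (log2 fold change 0.07, SE 0.59).

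At the barbed end, *rcsd1* had the lowest mean TPM of the 4 genes, with 39 to 220 counts per frog. Its only isoform with counts in all 8 frogs was i3 (3242 bases). It had 2.30, 6.59, 4.89 and 6.12 CPM in endurant frogs (A, D, E, G), against 16.9, 19.7, 4.58 and 6.98 CPM in burst-performant frogs (B, C, F, H). Frogs B and C thus stood apart from the others, whereas F and H lay within or close to the endurant range (log2 fold change -1.28, SE 0.56, quasi-likelihood adjusted p = 1.0). In frogs B and C i3 made up 100% of the gene's counts, and in frogs D and G it shared the gene with i2 alone. Isoform i1 (3217 bases) had counts in 4 frogs, namely A, E, F and H, and held 63.3 and 13.1% in endurant frogs A and E, against 42.9 and 35.6% in burst-performant frogs F and H.

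The *rcsd1* total was 7.99, 14.7, 9.84 and 10.6 CPM in endurant frogs (A, D, E, G), against 16.9, 19.7, 8.02 and 10.9 CPM in burst-performant frogs (B, C, F, H) (log2 fold change -0.38, SE 0.35). The groups overlapped. Without i2, the total was 7.39, 6.59, 6.16 and 6.12 CPM in endurant frogs (A, D, E, G), against 16.9, 19.7, 8.02 and 10.9 CPM in burst-performant frogs (B, C, F, H). Here every burst-performant frog lay above every endurant frog, by a log2 fold change of -1.09 (SE 0.33), but this did not pass over all Trinity genes (quasi-likelihood adjusted p = 1.0; exact test, adjusted p = 0.583). The frogs separated in TPM too, at 1.19 to 1.69 TPM in endurant frogs, against 1.92 to 3.25 TPM in burst-performant frogs. Of all Trinity gene totals, with no isoform left out, 1.34% separated with the burst-performant frogs higher and 1.66% with the endurant frogs higher. Of the 3 remainders, 1 did. As i2 was at 0 in all burst-performant frogs, leaving it out lowered the endurant frogs only. The separation is thus not free of the choice of i2, and the uncut totals are not a like background for it. The fold change kept its sign when each frog was left out in turn (-1.30 to -0.87). As Kallisto shares read pairs among isoforms, this remainder is not independent of the count given to i2. Of the other Trinity genes of the component, TR85355|c2_g3 averaged 1.41 ± 0.614 CPM in endurant frogs, against 1.56 ± 1.56 CPM in burst-performant frogs, and TR85355|c2_g2 and TR85355|c2_g4 had too few counts to be tested.

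In *lmo7*, which holds by far the longest of these transcripts, the isoforms that made up the total differed from frog to frog. The total was 72.3, 98.3, 141 and 99.4 CPM in endurant frogs (A, D, E, G), against 103, 103, 106 and 110 CPM in burst-performant frogs (B, C, F, H). On the CPM scale the 4 burst-performant frogs lay close together inside the endurant range (103 ± 28.3 CPM in endurant frogs, against 106 ± 3.44 CPM in burst-performant frogs; log2 fold change -0.05, SE 0.25). In TPM they did not, at 14.9 to 22.7 TPM in endurant frogs (17.8 ± 3.38), against 11.9 to 18.2 TPM in burst-performant frogs (13.6 ± 3.09). The difference on the scale of log2(TPM + 1) was 0.37, of the opposite sign, so that neither a direction nor a difference in spread can be given.

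Isoform i5 (5822 bases) was the most abundant *lmo7* isoform in endurant frogs D, E and G and followed i3 closely in frog A. It had 26.0, 58.7, 71.5 and 57.4 CPM in endurant frogs (A, D, E, G), against 26.3, 0.142, 35.8 and 0 CPM in burst-performant frogs (B, C, F, H). In frogs C and H it was thus near or at 0, whereas B and F lay above the lowest endurant frog and below the other 3 (log2 fold change 1.77, SE 1.39, quasi-likelihood adjusted p = 1.0). Isoform i6 (5946 bases) was found in 3 frogs only, at 16.8 CPM in endurant frog E, against 22.1 and 27.7 CPM in burst-performant frogs B and H, and i2 (5900 bases) in frog H alone. Isoform i3 (4697 bases) was found in every frog, at 27.7 to 46.1 CPM in the endurant frogs and 17.2 to 34.4 CPM in the burst-performant frogs, with 34.2 ± 8.25 CPM in endurant frogs, against 26.3 ± 7.84 CPM in burst-performant frogs.

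The share of i1 in the *lmo7* counts was 22.5, 8.21, 2.99 and 8.42% in endurant frogs (A, D, E, G), against 35.1, 68.7, 44.1 and 34.98% in burst-performant frogs (B, C, F, H). Taken with i5, it amounted to 61.6 ± 6.61% in endurant and 60.6 ± 18.5% in burst-performant individuals. The 4 isoforms longer than i3 (i1, i2, i5 and i6) together held 58.5 to 67.9% in the endurant frogs and 68.6 to 82.2% in the burst-performant frogs. This sum holds i1, by which the gene was chosen, and was formed after the values were seen. With i1 left out, the sum of i2, i5 and i6 ran the other way and overlapped, at 54.1 ± 12.2% in endurant and 28.7 ± 20.1% in burst-performant individuals. The *lmo7* total without i1 was 56.1, 90.1, 136 and 91.0 CPM in endurant frogs (A, D, E, G), against 66.8, 32.4, 59.2 and 71.8 CPM in burst-performant frogs (B, C, F, H). Frog A lay among the burst-performant frogs, and the log2 fold change of 0.69 (SE 0.33) did not pass (quasi-likelihood adjusted p = 1.0). As i1 was chosen for being higher in burst-performant frogs, leaving it out lowered them more, and this remainder is not independent of the choice either. The other Trinity gene of the component, TR29300|c2_g1, had too few counts to be tested.

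**Figure D3:**
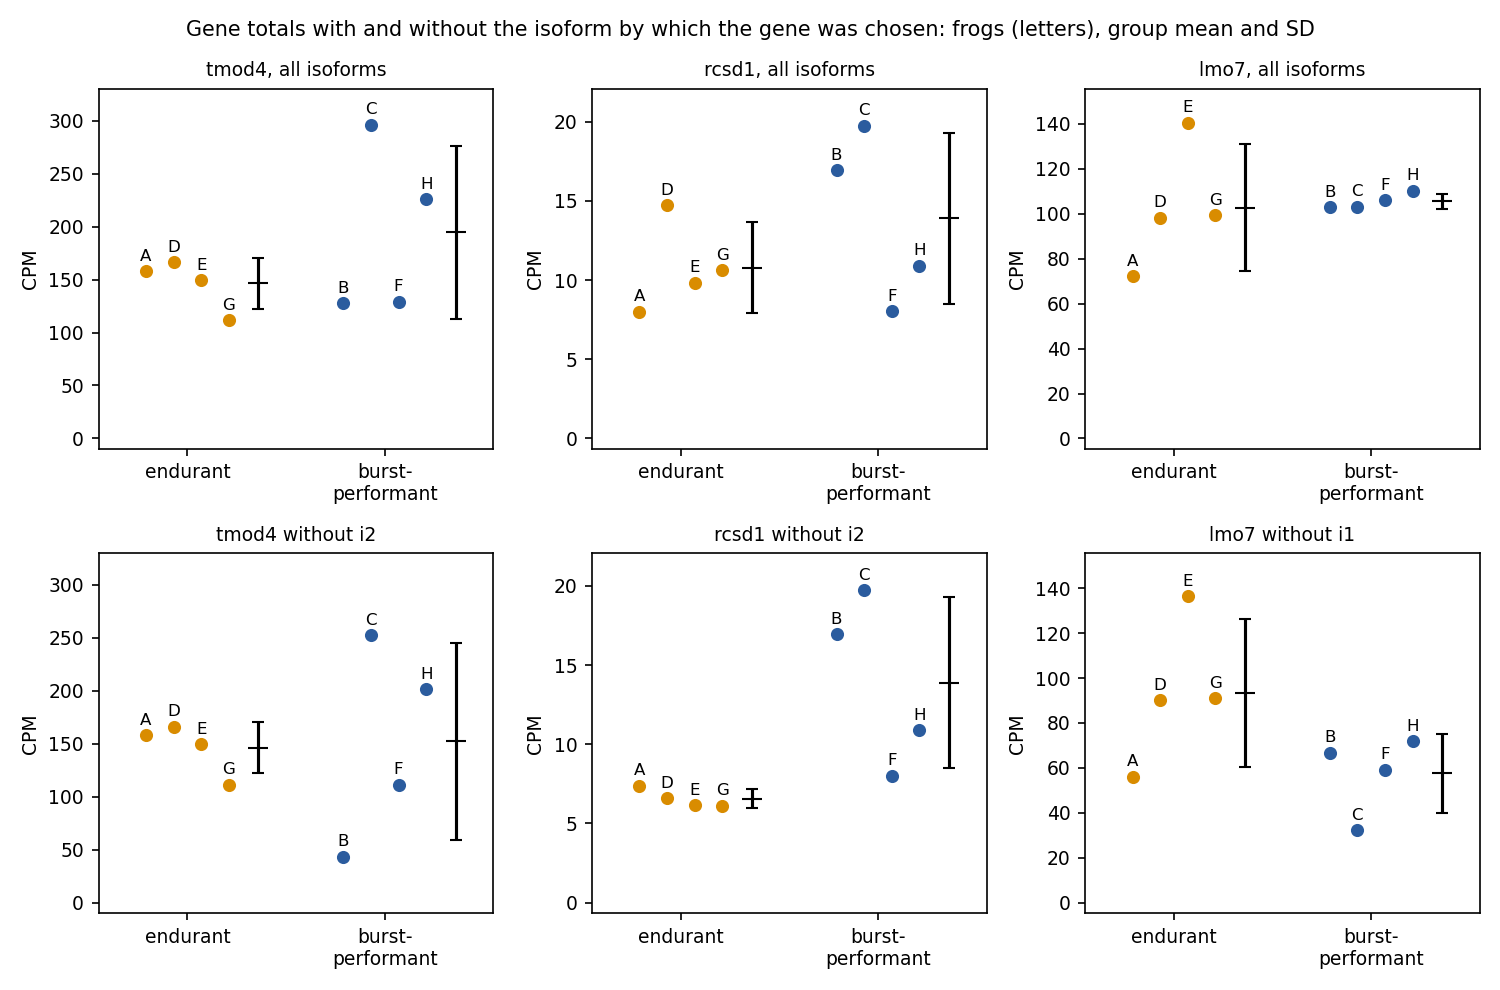
Totals of *tmod4*, *rcsd1* and *lmo7* in CPM (vertical axis) over all isoforms in the upper row and without the isoform by which the gene was chosen in the lower row, with 1 point per frog, endurant frogs in orange and burst-performant frogs in blue, and mean and SD (n = 4) at the right of each group. The totals overlap between groups in all 3 genes. In the lower row only the *rcsd1* values separate, at 6.12 to 7.39 CPM in endurant and 8.02 to 19.7 CPM in burst-performant frogs. Leaving out *rcsd1* i2 lowered the endurant frogs only.

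The component of the single *fsd2* transcript holds another Trinity gene, TR13106|c0_g2, which also has 1 isoform of 525 bases and no symbol in the sources used here. Their sequences were not compared, so whether TR13106|c0_g2 is a form of *fsd2* was not tested. TR13106|c0_g2 counted 15, 42, 48 and 39 read pairs in the endurant frogs (A, D, E, G), against 0, 0, 0 and 10 in the burst-performant frogs (B, C, F, H). *fsd2* had no count in frogs A, D, E and G, against 84, 46, 60 and 0 in frogs B, C, F and H. Each of the 8 frogs thus had counts for exactly 1 of these transcripts, and the exception to the split by group was frog H, which had the transcript of the endurant frogs.

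Summed, both transcripts amounted to 1.82, 9.23, 2.90 and 3.57 CPM in endurant frogs (A, D, E, G), against 6.47, 6.53, 3.82 and 2.79 CPM in burst-performant frogs (B, C, F, H). The means were 4.38 ± 3.32 CPM in endurant frogs, against 4.90 ± 1.89 CPM in burst-performant frogs (SD, n = 4 each). The sum overlapped between the groups. The total of TR13106|c0_g2 alone had a log2 fold change of 3.26 (SE 1.39, quasi-likelihood adjusted p = 1.0). By the exact test on gene totals, *fsd2*, whose total is its only isoform, was the 1 gene of the 4 that was called (45 of 35656 Trinity genes, 0.126%). It was likewise the only one called by DESeq2 (33 of 35656) and by the quasi-likelihood test without the filter on low counts (730 of 159077). With that filter, the quasi-likelihood test called none (0%; 1579 Trinity genes had an unadjusted p under 0.05). As this total is the isoform that chose the gene, these calls describe the choice.

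**Figure D4:**
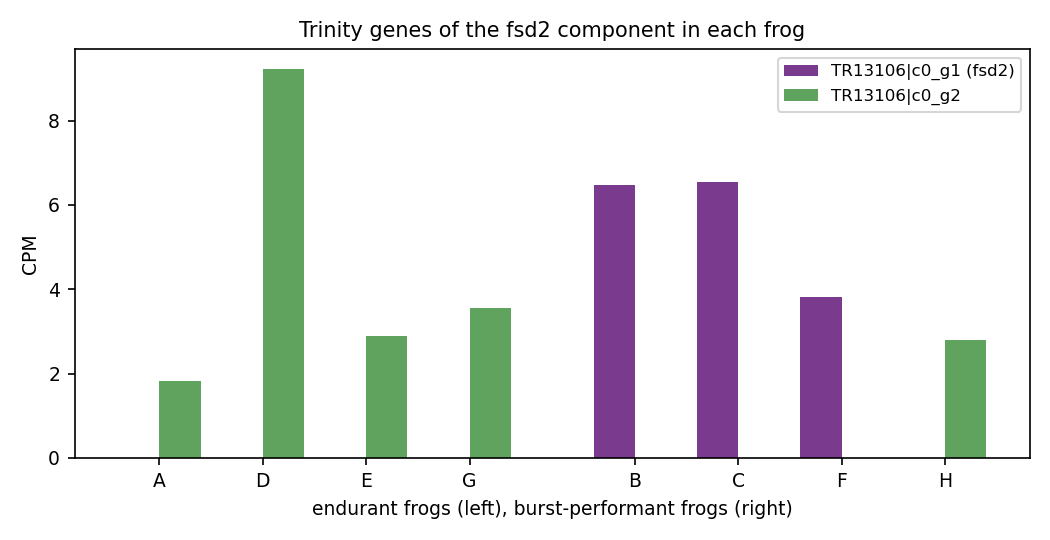
Level in CPM (vertical axis) of *fsd2* (TR13106|c0_g1, purple) and of the other Trinity gene of its component (TR13106|c0_g2, green) in each frog, the endurant frogs at the left and the burst-performant frogs at the right. No frog has both: frogs B, C and F have *fsd2* at 3.82 to 6.53 CPM, and frogs A, D, E, G and H have the other gene at 1.82 to 9.23 CPM.

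Such exclusive pairs were uncommon. Among 66841 pairs of tested transcripts within a component, 177 had at least 3 counts of exactly 1 of both in every frog, in 165 of 10842 components (1.52%). Of 702 pairs of equal length, 4 behaved so (0.570%), the *fsd2* pair among them. Because *fsd2* was selected on the contrast between the groups, the tested pairs are not a like background for its pair. This count was also added after the values were seen, so no conclusion is drawn from the rarity.

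For comparison, 3 other sarcomere and actin genes of the study's list are given, all of them selected on this contrast with an isoform higher in burst-performant individuals. They are examples, and other genes of that list were not examined in this way. In *mybpc2*, which encodes a myosin-binding protein of fast muscle, isoform i2 of TR20986|c1_g1 was near 0 in the endurant frogs (at most 0.121 CPM) and lay between 10.1 and 42.5 CPM in the burst-performant frogs. All isoforms of this Trinity gene together averaged 180 ± 20.5 CPM in endurant frogs, against 183 ± 121 CPM in burst-performant frogs. The article reports a further, dissimilar *mybpc2* transcript higher in burst-performant individuals, which was not examined here. In *arpc4*, which encodes a subunit of the ARP2/3 complex that nucleates actin branches, isoform i1 of TR29064|c2_g1 was at 0 in the endurant frogs, against 0.568 to 8.24 CPM in the burst-performant frogs. The whole gene averaged 29.9 ± 6.24 CPM in endurant frogs, against 41.9 ± 3.90 CPM in burst-performant frogs (log2 fold change -0.50, SE 0.23, quasi-likelihood adjusted p = 1.0). Unlike the totals of *tmod4*, *rcsd1* and *lmo7*, this total did not overlap in CPM (22.6 to 35.9 CPM in endurant frogs, against 36.6 to 46.0 CPM in burst-performant frogs). It did in TPM (11.6 to 18.9 TPM in endurant frogs, against 17.95 to 23.3 TPM in burst-performant frogs). Of all Trinity gene totals, 1.34% separated in CPM in this direction. The *arpc4* total holds i1, by which the gene was listed, so its separation is not free of that choice. The total without i1 was not examined. LOC108701289 (TR30742|c3_g2_i1) is described in the article as the counterpart of *speg* of *Xenopus tropicalis*, whose protein resembles myosin light chain kinases. It was at 0 in all endurant frogs and in frog H and reached 189, 143 and 161 counts in frogs B, C and F, the same frogs as *fsd2*. Both were selected as higher in burst-performant frogs, and frog H is the shallowest library. The share of all transcripts with this pattern is not given here.

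Whether levels followed performance within the groups was asked with the rank of each frog (1 lowest to 8 highest) for velocity, acceleration, time and distance, in a model that holds the group. None of the 13 isoforms and none of the 4 gene totals had a slope called at an FDR of 0.05 on any of the 4 traits. Among all transcripts none was called either (0% for each trait, with 1391 to 1841 at an unadjusted p under 0.05), and among all Trinity genes 1 was called, for distance (0.0028%). Among isoforms with counts in all 8 frogs, the smallest unadjusted p was that of *lmo7* i1 for acceleration, with a slope of 0.27 per rank on the log2 scale (SE 0.07, quasi-likelihood adjusted p = 1.0). It was 1 of 2 of the 13 isoforms with an unadjusted p under 0.05 for acceleration, against 3.31% of all transcripts. The other was *lmo7* i6, with counts in 3 frogs only and a slope of the opposite sign (-4.51, SE 0.97). The *lmo7* total had a slope of -0.09 (SE 0.06) on acceleration. For velocity, time and distance 0 of the 13 had such a p, against 2.64, 2.92 and 2.50% of all transcripts. Acceleration is thus the trait of the 4 with the most such isoforms. Both belong to *lmo7*, among whose isoforms Kallisto shares read pairs, so they do not count as separate observations.

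In ascending order of acceleration, the endurant frogs were E, D, G and A, with 4.23, 8.13, 8.32 and 16.2 CPM of *lmo7* i1, and the burst-performant frogs were B, H, F and C, with 36.2, 38.5, 46.7 and 71.0 CPM. On the CPM scale the levels were thus in the order of acceleration in both groups. Endurant frogs D and G were nearly level on that scale, from 37 and 91 counts, so the order of these frogs is not firm. In the burst-performant group distance ranks the frogs in the same order (B, H, F, C), so there these traits cannot be told apart. In TPM the endurant frogs kept the order of acceleration (0.408, 0.854, 1.04 and 1.86 TPM in E, D, G and A), whereas the burst-performant frogs did not (3.48, 3.40, 6.13 and 5.85 TPM in B, H, F and C). Counts per 1000000 of the unscaled depth changed the same neighbours, with 34.5, 31.0, 56.6 and 54.8 in burst-performant frogs B, H, F and C. The order in the burst-performant group therefore rests on the TMM scaling. Frog A ranked above 3 of the burst-performant frogs in acceleration and below all of them in *lmo7* i1. On the CPM scale, 0.219% of all transcripts tested had the frogs of both groups in the order of acceleration, in either direction throughout, and of the 13 isoforms *lmo7* i1 was the only such isoform. None of the 13 had them in the order of time (0.246%) or of distance (0.146%), and velocity, which holds a tie, was not read in this way.

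**Figure D5:**
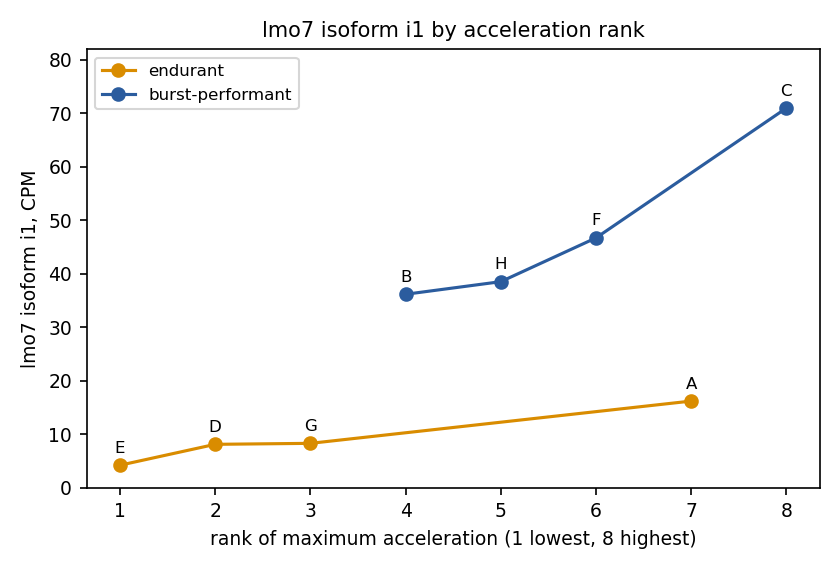
Level of *lmo7* isoform i1 in CPM (vertical axis) against the rank of maximal acceleration (horizontal axis, 1 lowest to 8 highest), with 1 point per frog and a line through each group, endurant frogs in orange and burst-performant frogs in blue. On this CPM scale both lines climb at every step, from frog D to G only slightly, whereas in TPM frog H lies below B and frog C below F. The endurant line stays at or under 16.2 CPM while the burst-performant line starts at 36.2 CPM.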

How the data were processed

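PolyA RNA of the knee extensors of 8 male frogs was sequenced in paired ends. The authors trimmed the reads with Trimmomatic, assembled them de novo with Trinity and estimated abundances with Kallisto. Program versions are not named in these sources. Deposited estimated counts were not corrected for length or depth. Kallisto derived the deposited TPM values from counts and effective lengths. Transcript lengths, as deposited, are in bases. Neither sequences of the assembly nor a genome were used here.

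Counts were rounded and compared with edgeR 4.0.16 in R 4.3.3 (TMM, estimateDisp, glmQLFit, glmQLFTest) on transcripts, and on Trinity gene totals, with a CPM over 1 in 2 or more frogs. Fold changes are endurant minus burst-performant. P-values were adjusted by Benjamini-Hochberg over all features of a fit, and calls needed an FDR of 0.05 or less and, between groups, a log2 fold change of 2 or more in either direction. The SE was taken as the size of the log2 fold change over the square root of F. For a group wholly at 0, folds used pooled counts and a floor of 3 counts over the group. Of the performance values, only ranks were used. Python 3.11.15 was used for summaries. The quasi-likelihood tests of the group and of the slope on acceleration were also run on simulated counts of known differences, with no outcome given here.

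The members and lists were chosen with earlier results of these data known. All 103 entries of the study's list were joined to 1 transcript each by direction, fold change and FDR under the exact test, which uses the values of that list to name transcripts only. All isoforms of the 4 genes were named, further Trinity genes of their components by ID and total, *arpc4*, *mybpc2* and LOC108701289 as other genes of the list, and for each total the Trinity gene of mean CPM of at least 10 with the highest correlation. The count of exclusive pairs, the sums of isoforms and the order by trait were added after values were seen. Alternatives were edgeR's exact test, DESeq2 1.42.0, limma 3.58.1 on log2(TPM + 1), other scalings and filters, and each frog left out in turn.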

Additional observations from a re-analysis of the deposited data

Results flagged for a closer look

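In 45 groups of 4 frogs, 5 values stood apart from the other 3 frogs of their group by the critical value of Dixon's test for 4 values. Chance exceeds this value in about 1 in 20 groups of normally distributed values. Where the other 3 frogs are at 0, any count is flagged, so this rate does not hold for such groups. In the burst-performant group, *tmod4* i4 had 5.87 CPM in frog H and 0 in the others, and *tmod4* i5 had 66.3 CPM in frog C, against 10.4 to 12.8 CPM in the others. Without frog C the log2 fold change of *tmod4* i5 was 1.06. *lmo7* i2 had 9.50 CPM and TR13106|c0_g2 had 2.79 CPM in frog H, and both were at 0 in the other burst-performant frogs. In the endurant group, *lmo7* i6 had 16.8 CPM in frog E and 0 in the others. Of these 5 values, 3 belonged to frog H, the shallowest library. The part of depth in these values was not tested.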

How the results depend on the processing

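The 4 isoforms by which the genes were chosen kept their direction under every alternative run, and the ranges over the frogs left out in turn were -12.04 to -11.09 for *tmod4* i2, 8.0 to 8.80 for *rcsd1* i2, -2.79 to -2.13 for *lmo7* i1 and -8.93 to -8.06 for *fsd2*. On log2(TPM + 1) the differences were -4.89, 1.02, -1.49 and -2.61. The share of *lmo7* i1 differed by -39.2 to -27.5 percentage points with each frog left out. The number of transcripts called was 0 by the quasi-likelihood test, 109 by the exact test, 153 by DESeq2, 13 without a filter and 5 by limma. For Trinity genes it was 0, 45, 33, 730 and 2, and 0 to 1 with a frog left out (1 without frog C). For the *tmod4* total without i2, library size alone gave 0.18, limma 0.40, and single frogs left out -0.39 to 0.29. Library size alone also moved the median of all Trinity genes to 0.14. The slope on distance called 1 Trinity gene, 0 with a CPM above 1 in 4 frogs, 0 with the rank alone and 0 to 2 with a frog left out (2 without frog E, 0 without C, F, G or H), and 0 to 1 transcripts (1 without frog A). The slope on acceleration called 0 to 2 Trinity genes (2 without frog A). None of the members was among the slopes called under any alternative. No paired analysis was possible because the frogs share no replicate label. The comparison of *lmo7* i1 with acceleration in TPM and on unscaled depth was added after the values were seen.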

Other observations

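Between the totals of the 4 genes, Pearson's r of log2(CPM + 1) was positive for all 6 pairs and ran from 0.035 for *tmod4* with *lmo7* to 0.523 for *rcsd1* with *fsd2*, as a description over 8 frogs of both groups. The Trinity genes whose totals were most like theirs, of 6130 or 6131 compared, were TR63711|c1_g2 for *tmod4* (r = 0.979), TR9110|c21_g1 for *rcsd1* (r = 0.969), TR77213|c1_g1 for *lmo7* (r = 0.954) and TR38726|c1_g1 for *fsd2* (r = 0.978). None of these carries a symbol in the sources used here, and the highest of so many values over 8 frogs is high by selection.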
